A study of Mus musculus with 17 samples.

Results

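The 4 Hox gene clusters of the mouse were taken as 4 intervals of build mm9: Hoxa at chr6:52100000-52220000 (120 kb), Hoxb at chr11:96050000-96240000 (190 kb), Hoxc at chr15:102740000-102880000 (140 kb) and Hoxd at chr2:74485000-74615000 (130 kb). Together they span 580 kb and carry 38 listed Hox genes, with 10 in Hoxa, 10 in Hoxb, 9 in Hoxc and 9 in Hoxd. A peak or window belonged to a cluster where it overlapped the interval by at least 1 bp, and 200 kb on either side served as flanks. By this rule the clusters held 49 of the 2218 windows listed with more 5-hydroxymethylcytosine signal in Sirt6 knockout cells, 0 of the 1562 windows listed with less, 6 of the 14510 Sirt6 peaks of wild-type cells, and 0 peaks in each of 8 lists of histone acetylation.

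Hox genes encode homeodomain transcription factors that give the segments of the embryo their identity along the axis from head to tail. Within each cluster the genes lie in the order of the body regions they pattern, from group 1 at the anterior end to group 13 at the posterior end, and they are switched on in that order. In embryonic stem cells the clusters are known as domains held silent by Polycomb complexes, with CpG-rich promoters that carry both active and repressive histone marks, and retinoic acid is a textbook inducer of the genes at the anterior end. Sirt6 is a deacetylase that removes acetyl groups from histone H3 at lysines 9 and 56. Tet enzymes make 5-hydroxymethylcytosine by oxidising 5-methylcytosine.

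The study profiled mouse embryonic stem cells of strain 129, either wild type (WT) or Sirt6 knockout (KO), grown on irradiated feeder cells with LIF. For ChIP-seq the feeders were removed by plating before use. There were 17 samples in 17 groups, so each condition had 1 library. Sirt6 was mapped in untreated WT cells and, with a lower and a higher amount of antibody, in untreated KO cells, each beside a whole-cell extract. H3K9ac and H3K56ac were mapped in WT and KO cells, either untreated or after 2 days with retinoic acid (RA) in medium without LIF. CMS-IP was run on WT and KO cells in ES medium, with an input library for each genotype. In CMS-IP, bisulfite turns 5-hydroxymethylcytosine into cytosine 5-methylenesulfonate (CMS) and an antiserum pulls it down.

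The labels do not say whether the WT and KO cells were 1 line or several. With 1 library per group differences between conditions had no replicate check and were not tested. The WT Sirt6 library held 2008232 tags after filtering, the 2 KO Sirt6 libraries 40006795 and 48956556, and the 8 acetylation libraries 5782181 to 10250030. For CMS-IP, the KO cells gave 11413874 IP and 23924232 input reads, and the WT cells 13451714 IP and 16623305 input reads. Both KO Sirt6 lists held 0 peaks across the genome, which is the only check of the knockout these lists allow. The identity of the cells as stem cells was not checked here, since lists of positions carry no expression values.

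Promoters are shown first, because CpG dinucleotides are where 5-hydroxymethylcytosine is chiefly made and the Hox promoters are rich in them. RefSeq promoters (build GRCm38.p6, from 250 bases before to 50 after a gene's start) were found for 22 of the 38 genes, 24 promoters in all: 10 in Hoxa, 3 in Hoxb, 1 in Hoxc and 10 in Hoxd. This build differs from that of the peak lists, so the promoters could not be laid over the peaks and windows. For each cluster the promoter with the most CG dinucleotides was chosen after the counts were seen, and its 250 bases before the start are printed 5′ to 3′ on the gene's strand, with each CG in capitals.
Hoxa13 (GRCm38.p6 chr6:52260881-52261130, minus strand): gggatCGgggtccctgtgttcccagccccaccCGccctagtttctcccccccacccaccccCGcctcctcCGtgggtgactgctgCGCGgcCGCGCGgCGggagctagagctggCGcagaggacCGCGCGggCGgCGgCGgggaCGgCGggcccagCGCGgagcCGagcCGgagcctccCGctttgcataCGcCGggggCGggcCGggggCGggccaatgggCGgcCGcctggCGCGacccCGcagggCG
Hoxb4 (GRCm38.p6 chr11:96318017-96318266, plus strand): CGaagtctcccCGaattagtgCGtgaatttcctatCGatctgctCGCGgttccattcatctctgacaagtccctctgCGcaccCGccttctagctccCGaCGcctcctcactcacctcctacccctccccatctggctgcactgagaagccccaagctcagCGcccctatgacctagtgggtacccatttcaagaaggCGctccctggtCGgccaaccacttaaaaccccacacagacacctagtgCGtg
Hoxc4 (GRCm38.p6 chr15:103034145-103034394, plus strand): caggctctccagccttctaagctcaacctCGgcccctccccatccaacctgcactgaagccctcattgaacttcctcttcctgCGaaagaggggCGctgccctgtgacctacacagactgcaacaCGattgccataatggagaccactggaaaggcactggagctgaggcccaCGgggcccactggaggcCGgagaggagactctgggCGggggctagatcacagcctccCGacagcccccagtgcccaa
Hoxd13 (GRCm38.p6 chr2:74667975-74668224, plus strand): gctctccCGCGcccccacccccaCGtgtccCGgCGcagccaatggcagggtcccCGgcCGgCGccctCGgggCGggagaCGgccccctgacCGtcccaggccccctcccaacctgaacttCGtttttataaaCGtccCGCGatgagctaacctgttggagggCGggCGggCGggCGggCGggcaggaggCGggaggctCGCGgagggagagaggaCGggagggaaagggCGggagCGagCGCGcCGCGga

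The Hoxa13 promoter held 45 CG in its 300 bases and that of Hoxd13, also a gene of the posterior end, held 37. The Hoxb4 promoter held 14 and the Hoxc4 promoter 9. The median of the 24 Hox promoters was 14.5 CG per 300 bases (4 to 45), beside a median of 7 over all 32851 mouse promoters of that length, and 20 of the 24 lay above the median of all. The genes of groups 9 to 13 had a median of 20 (11 promoters), those of groups 5 to 8 a median of 13 (5 promoters), and those of groups 1 to 4 a median of 12 (8 promoters). Within groups 1 to 4, Hoxd1 reached 29 while Hoxd4 held 4, so the groups overlapped widely. The half-site of the retinoic acid receptor, AGGTCA on either strand, occurred in 7 of the 24 promoters (29.2%), which were those of Hoxa5, Hoxb4, Hoxc4, Hoxd3, Hoxd4, Hoxd8 and Hoxd10. Of all promoters of that length 16.3% held it. A match is a description of letters and not a binding site.

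The first comparison set 5-hydroxymethylcytosine in KO cells against WT cells. All 49 windows of 500 bp listed in the Hox clusters were higher in KO, with 21 in Hoxa, 11 in Hoxb, 9 in Hoxc and 8 in Hoxd. The authors' deposited table lists windows with an edgeR p-value under 0.001, and over the genome 0.0719% of the 3084167 windows tested were listed as higher and 0.0506% as lower. In the clusters 4.22% of all 1160 windows were listed as higher: 8.75% in Hoxa, 2.89% in Hoxb, 3.21% in Hoxc and 3.08% in Hoxd. The number tested over the genome was inferred from the authors' adjusted and unadjusted p-values. How many windows were tested inside the clusters is not known, so the shares of clusters and genome have unlike denominators. At the density of their chromosomes outside the clusters, 0.884 higher windows were expected in the 580 kb. The count of 0 lower windows stood beside an expected 0.180, so it shows nothing about lower windows.

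Density against the rest of the chromosome was raised in all 4 clusters by more than the counting error. Hoxa held 175 higher windows per Mb, beside 2.14 per Mb on the rest of chromosome 6, a ratio of 81.6 (exact 95% interval 49.8 to 127). Hoxb held 57.9 per Mb beside 2.14, a ratio of 27.0 (13.3 to 49.2). The Hoxb value fell to 11.1 (1.32 to 40.9), from 2 windows, when only windows whose KO input did not exceed the WT input were kept. Hoxc held 64.3 per Mb beside 0.860, a ratio of 74.7 (33.1 to 149). Hoxd held 61.5 per Mb beside 0.762, a ratio of 80.8 (34.2 to 164). The intervals of the 4 clusters overlapped, those of Hoxa and Hoxb excepted, where Hoxa began at 49.8 and Hoxb ended at 49.2. All these intervals cover counting error alone, and neighbouring windows can share DNA fragments, so they are narrower than the true uncertainty.

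Higher windows were denser in each cluster than in its flanks. The flanks held 5 higher windows in 1600 kb (3.13 per Mb), with 1 beside Hoxa, 3 beside Hoxb, 1 beside Hoxc and 0 beside Hoxd, and 0 lower windows. The clusters together held 84.5 per Mb, 27.0 times the density of their flanks (10.8 to 86.9). Hoxa stood 70.0 times above its flanks (11.3 to 2895), Hoxc 25.7 times (3.56 to 1127) and Hoxb 7.72 times (2.04 to 43.1). For Hoxd, whose flanks held 0 windows, the ratio has no upper limit and its exact 95% interval began at 5.25. The 5 flank windows were too few to rank the clusters by this measure.

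**Figure D1:**
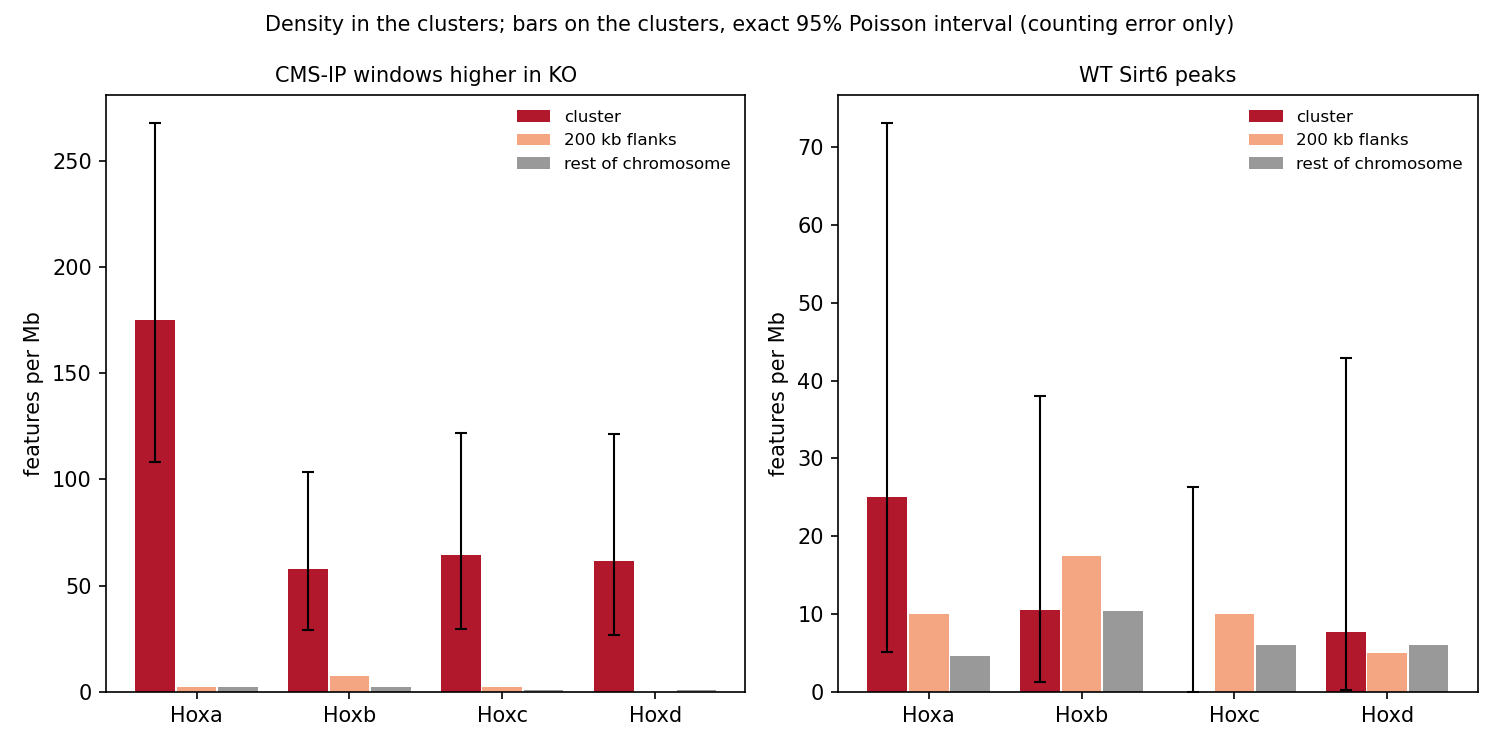
Features per Mb in each Hox cluster (red), in its 200 kb flanks (orange) and on the rest of its chromosome (grey), for CMS-IP windows higher in KO (left) and WT Sirt6 peaks (right). Black lines are exact 95% Poisson intervals of the cluster's own density and cover counting error only. The windows reach 57.9 to 175 per Mb in the clusters, while the Sirt6 intervals of Hoxb, Hoxc and Hoxd span the values of flanks and chromosome.

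Such crowding was rare elsewhere. The genome was cut end to end into stretches of each cluster's length, the Hox clusters left out. Of 21478 stretches of 120 kb, 0 held as many higher windows as the 21 of Hoxa, and the fullest held 14. Stretches as full as Hoxb (11 or more) numbered 4 of 13569, as full as Hoxc (9 or more) 3 of 18412, and as full as Hoxd (8 or more) 6 of 19827. On their own chromosomes 0 stretches matched Hoxa, Hoxc or Hoxd, and 3 matched Hoxb. End-to-end cuts can split a dense place, so these counts can miss places as full as a cluster. Between 6.72% and 9.78% of all stretches held 1 higher window or more.

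**Figure D2:**
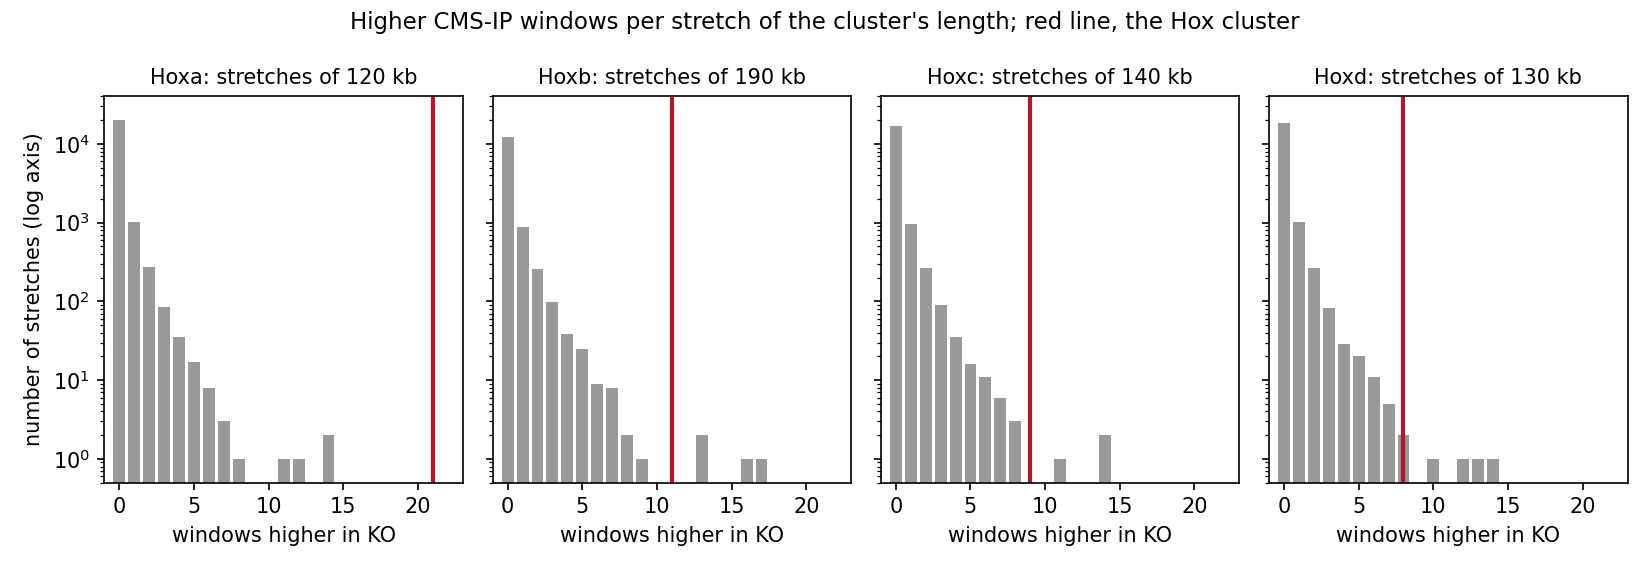
Number of end-to-end stretches of the genome (log axis) by how many CMS-IP windows higher in KO they held, for stretches of the length of each Hox cluster; the red line marks the cluster's own count. Hoxa lies beyond every stretch, at 21 against at most 14, and a few stretches lie at or beyond the lines of Hoxb, Hoxc and Hoxd.

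The 49 windows were chosen by their IP difference, so their own IP values are given as a description. In WT cells the IP values had a median of 1.19 RPKM (reads scaled to window length and library size, 0 to 6.24), and in KO cells 4.91 (1.75 to 12.6). The input values, which were alike, had a median of 2.17 RPKM in WT (0.481 to 5.29) and 2.17 in KO (0.920 to 6.10). Summed over the 49 windows there were 1651 KO IP reads and 561 WT IP reads, 3.47 times more per library size in KO (3.15 to 3.82), beside 2.64 times in the other 2169 higher windows. The summed input reads were 1371 in KO and 947 in WT, a ratio of 1.01 (0.925 to 1.09), against 1.00 in the other windows. By cluster the input ratio was 1.12 in Hoxa (0.982 to 1.27), 1.09 in Hoxb (0.912 to 1.31), 0.867 in Hoxc (0.703 to 1.07) and 0.806 in Hoxd (0.660 to 0.986). In the higher windows on the rest of the Hoxa chromosome it was 1.24 (1.20 to 1.28). On the rest of the chromosomes of Hoxb, Hoxc and Hoxd it was 1.05, 0.926 and 0.971. The KO input was above the WT input in 15 of 21 Hoxa windows, 9 of 11 in Hoxb, 4 of 9 in Hoxc and 2 of 8 in Hoxd. Over the 49 windows that was 61.2%, beside 50.3% of the other higher windows. Windows whose KO input did not exceed the WT input numbered 19 of the 49. The part of the input in the differences of single windows was not tested.

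In WT cells the Hox windows carried less IP signal than input. The ratio of WT IP to WT input was 0.732 over the 49 windows (0.658 to 0.814), beside 1.10 in the other higher windows (1.09 to 1.12). Low WT IP was not particular to the Hox windows, though other dense stretches varied. The densest stretches elsewhere of the length of Hoxa, Hoxb and Hoxd stood at 0.886, 0.891 and 0.868. These overlap at the same place on chromosome 11 and are not separate cases. That of the length of Hoxc stood at 1.52. Among the listed dense stretches of up to 100 kb elsewhere the ratio ran from 0.735 to 2.13. By cluster the ratio was 0.790 in Hoxa (0.671 to 0.928), 0.527 in Hoxb (0.405 to 0.681), 0.659 in Hoxc (0.503 to 0.859) and 0.899 in Hoxd (0.715 to 1.13). WT IP lay below WT input in 34 of the 49 windows (69.4%) and in 53.1% of the others. In KO cells IP stood 2.52 times above input (2.35 to 2.71), beside 2.91 in the other windows. KO IP lay above KO input in 45 of the 49 windows (91.8%) and in 93.6% of the others. In 30 windows (61.2%) the WT value was below input and the KO value above it, beside 46.7% of the others. Since a low WT IP value helps a window to be listed, these ratios describe the listed windows and not the clusters as a whole.

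**Figure D3:**
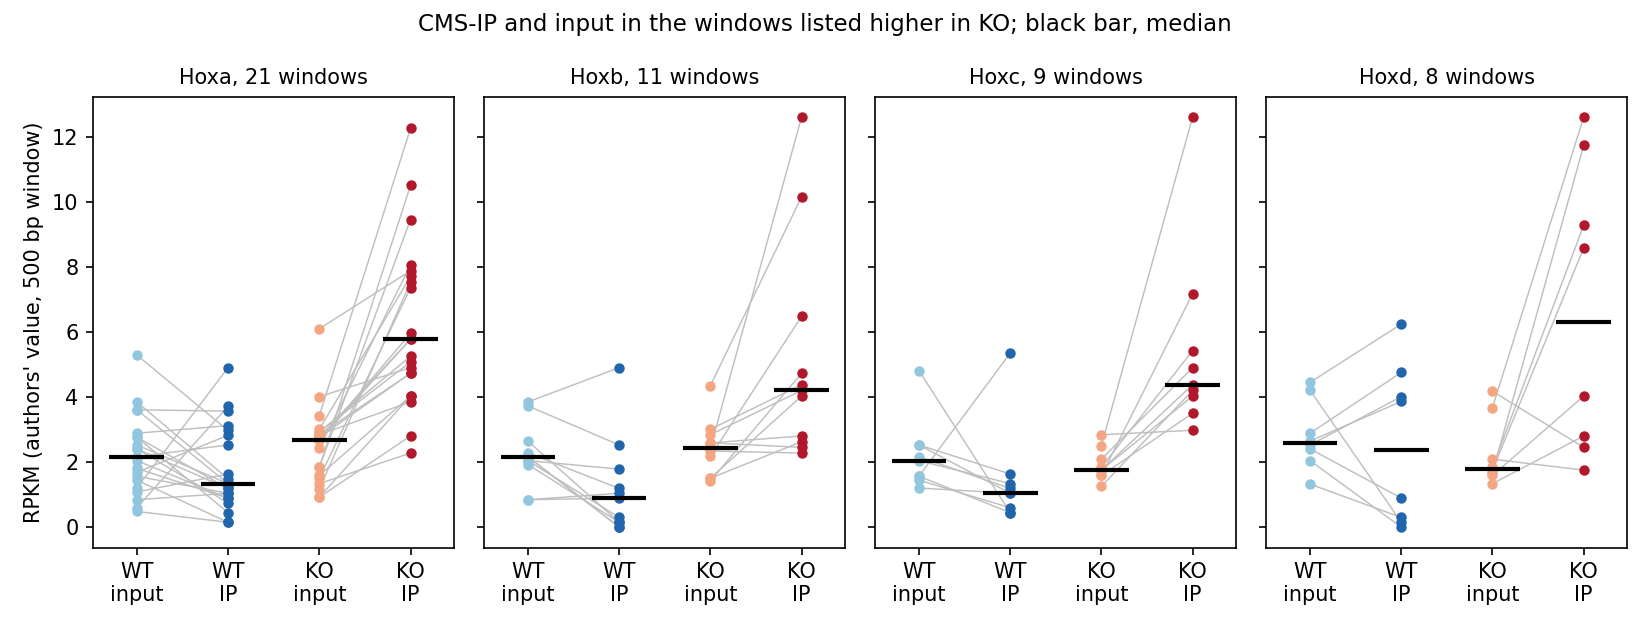
RPKM of the 4 CMS libraries in each window listed as higher in KO, by cluster; dots are 500 bp windows, grey lines join input and IP of a window within a genotype, and black bars are medians. The WT IP medians lie below the WT input medians and the KO IP medians above the KO input medians. The ranges of both inputs overlap in each cluster. In Hoxc the WT input reaches higher (4.81 RPKM) than the KO input (2.84).

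The windows were spread through the clusters. With each cluster divided into 3 equal lengths from the side of the group 13 gene, 13 windows fell in the posterior part, 24 in the middle and 12 in the anterior part. In Hoxa they ran from position 52114001 to 52203500 (89.5 kb) in 13 runs of adjoining windows, with the widest gap 25.5 kb. Hoxc windows ran over 62.0 kb in 6 runs and Hoxd windows over 68.5 kb in 6 runs. In Hoxb they spanned 148 kb and left a gap of 89.0 kb (96065501 to 96154500) with none. Of the 49, 27 adjoined another listed window, and the longest run was 1500 bp in Hoxa (52193501 to 52195000). Which genes lie at these positions was not determined, as gene coordinates of mm9 were not used here. In the RefSeq order Hoxa13 lies at the high end of its cluster, and Hoxb13, Hoxc13 and Hoxd13 at the low ends of theirs.

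**Figure D4:**
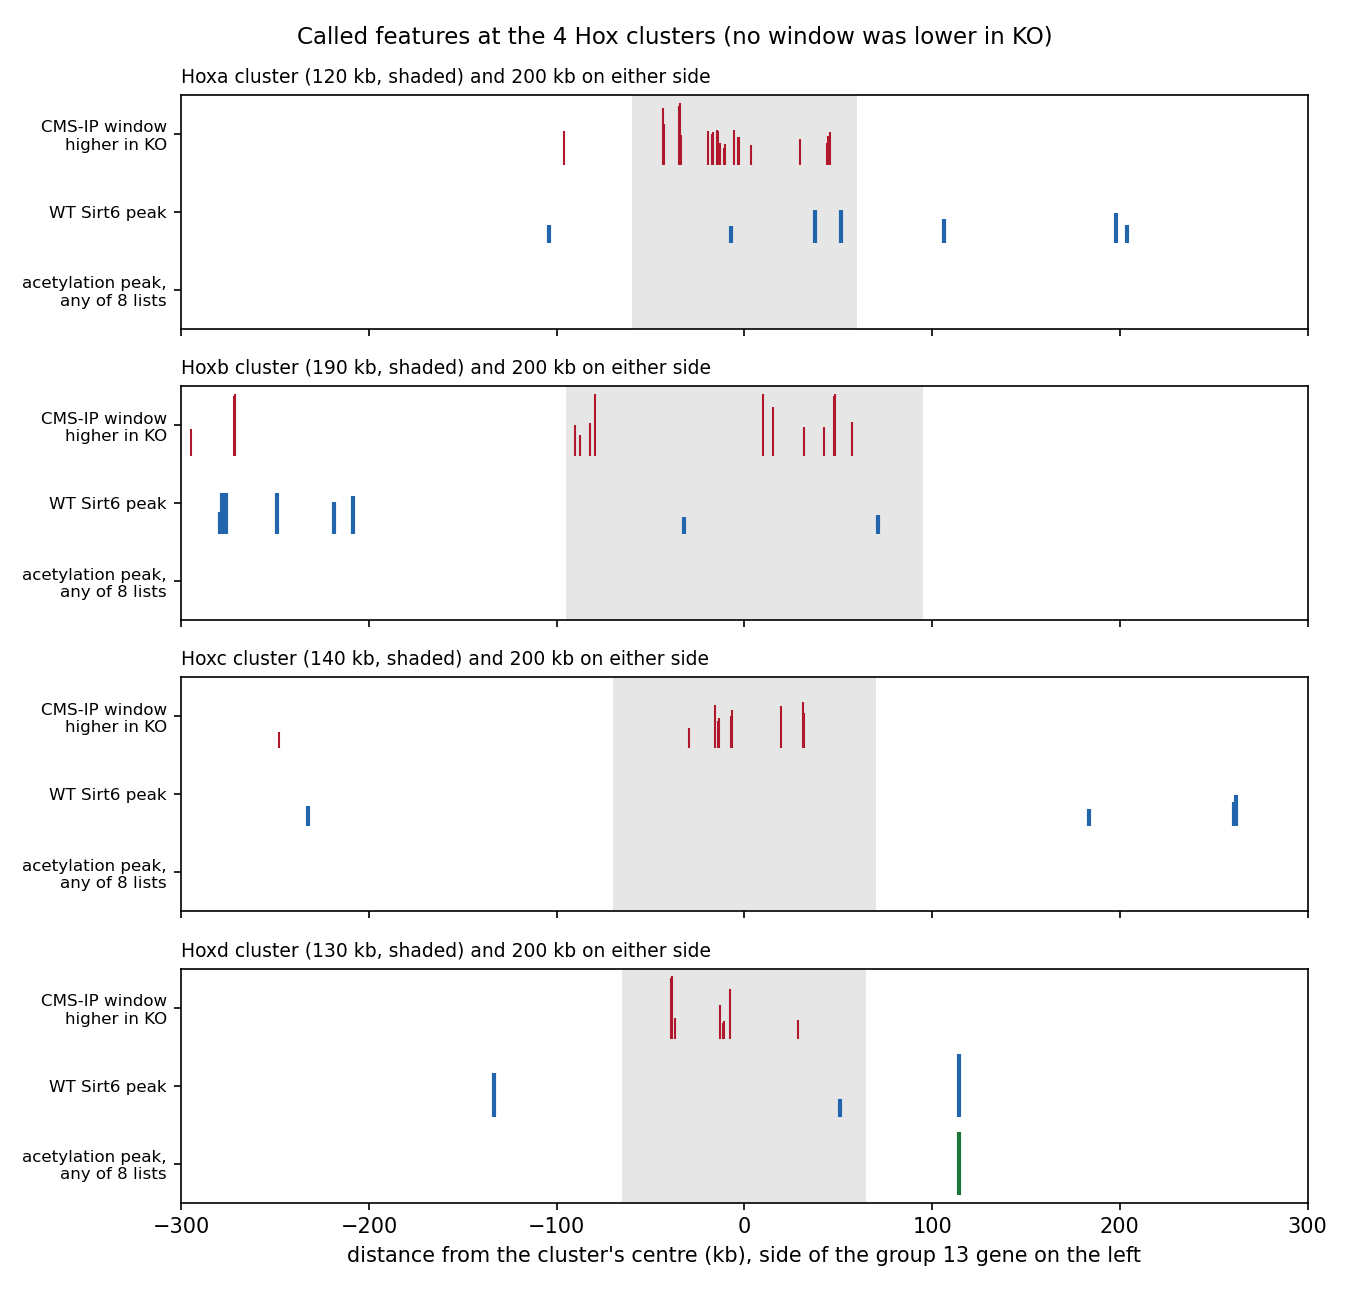
Called features along each Hox cluster (grey) and its 200 kb flanks, by distance from the cluster's centre in kb, with the posterior end on the left. Red bars are CMS-IP windows higher in KO (height follows the authors' log2 fold change, up to 4), blue bars WT Sirt6 peaks (height follows fold enrichment), and the green bar the only acetylation peak (fixed height). Red bars crowd into the grey areas, while blue bars lie inside and outside them.

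In Hoxa the listed window with the smallest edgeR p-value lay near the posterior end. The authors' p-values compare 1 KO with 1 WT IP library, so they measure no spread between cultures. The window at chr6:52203001-52203500 had 5.78 RPKM in KO IP and 0.446 in WT IP, with inputs of 2.68 in KO and 2.77 in WT. It held 33 and 3 IP reads, and in the authors' deposited table its log2 fold change was 3.65, at an edgeR adjusted p of 0.0324. Its neighbour at 52202501-52203000 had 4.73 RPKM in KO IP and 0.743 in WT IP (inputs 2.76 and 2.41), and the authors' deposited table puts its log2 fold change at 2.65 with edgeR's adjusted p at 1. Both windows had a WT IP value far below either input. The window at 52162501-52163000, in the middle of the cluster, had the highest KO IP of the listed Hoxa windows at 12.3 RPKM. It had 3.57 in WT IP, with inputs of 3.43 and 3.61. In the authors' deposited table its 70 and 24 IP reads have a log2 fold change of 1.79, at an edgeR adjusted p of 0.0897. Adjoining windows at 52174001-52174500 and 52174501-52175000 had 7.36 and 5.78 RPKM in KO IP, and 1.64 and 1.19 in WT IP. Their KO inputs were 1.50 and 2.76 and their WT inputs 1.08 and 2.41.

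In the authors' deposited table the windows with adjusted p of 0.0324 and 0.0897 were the only 2 of the 49 below 0.1 by edgeR (4.08%), beside 3.34% of all 2218 higher windows, so the share was near the background. Adjusted values there are the p-value times the number of windows tested, up to 1. In the other 3 clusters no window reached that limit. What set the clusters apart in these data was how many windows were listed together, and each window alone rested on few reads: WT IP held 3 reads or fewer in 13 of the 49 (26.5%, beside 17.0% of the others) and 0 reads in 3.

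In Hoxb the window at chr11:96054501-96055000, nearest the posterior end, had 10.2 RPKM in KO IP and 2.53 in WT IP, with inputs of 4.35 and 3.73. Its log2 fold change was 2.01 and its edgeR adjusted p 0.198 in the authors' deposited table, the smallest outside Hoxa. Close by, the window at 96057001-96057500 had 12.6 RPKM in KO IP and 4.91 in WT IP, with inputs of 2.42 and 3.85. The posterior end of Hoxb thus held the highest KO IP values among the listed windows of that cluster. At 96193001-96193500, towards the anterior end, KO IP had 4.21 RPKM and WT IP 0.149, or 24 reads and 1 read, with inputs of 2.84 and 2.65. The window at 96176501-96177000 had 6.48 and 1.78 RPKM (inputs 2.17 and 2.05). That at 96154501-96155000 had 15 KO IP reads and 0 WT IP reads, at 2.63 and 0 RPKM with inputs of 1.50 and 2.17. With 0 reads in 1 arm, the fitted fold change of such a window is no measure of its size.

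In Hoxc, where 9 windows were listed, KO IP ranged from 2.98 to 12.6 RPKM and WT IP from 0.446 to 5.35. The window at chr15:102780001-102780500 had the highest values, 12.6 in KO IP and 5.35 in WT IP, with inputs of 2.51 and 1.56. It was the only listed Hoxc window with WT IP above WT input. The smallest p in Hoxc belonged to 102803001-102803500, with 7.18 RPKM in KO IP and 1.34 in WT IP (inputs 1.59 and 2.05) and a log2 fold change of 2.42 in the authors' deposited table. Its neighbour at 102802501-102803000 had 4.21 and 1.04 RPKM, with inputs of 1.25 and 1.20. A group of 3 windows lay nearby: 102794001-102794500 with 4.03 and 0.595 RPKM in KO and WT IP, 102795501-102796000 with 5.43 and 1.64, and 102796001-102796500 with 4.38 and 1.19. Towards the anterior end lay 102829001-102829500 with 2.98 and 0.446 RPKM, 102841001-102841500 with 3.50 and 0.446, and 102841501-102842000 with 4.91 and 1.04. At the first of these the inputs were 2.84 in KO, just below the KO IP, and 4.81 in WT, far above the WT IP.

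In Hoxd, where 8 windows were listed, 4 had WT IP above WT input. The highest was chr2:74538501-74539000, with 12.6 RPKM in KO IP and 6.24 in WT IP (inputs 3.68 and 4.45), and 74539001-74539500 beside it had 8.59 and 3.87 (inputs 1.76 and 2.65). At 74513001-74513500, in the posterior part, KO IP had 11.7 and WT IP 4.76 RPKM, with inputs of 1.67 and 2.89, and at 74578501-74579000 they had 9.29 and 4.01, with inputs of 1.84 and 2.53. These 4 windows were high in both genotypes and differed by log2 fold changes of 1.03 to 1.31 in the authors' deposited table. The other 4 were low in WT IP. The windows at 74510501-74511000 and 74511001-74511500 had 2.45 and 1.75 RPKM in KO IP, below their KO inputs of 4.18 and 2.09, and 0.149 and 0 in WT IP. At 74537001-74537500 KO IP had 4.03 and WT IP 0.892, and at 74542001-74542500 they had 2.80 and 0.297.

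The flank windows lay apart from the clusters. Beside Hoxa, the window at chr6:52256001-52256500 had 3.50 RPKM in KO IP and 0.743 in WT IP, 36.0 kb beyond the posterior edge. Beside Hoxb, adjoining windows at chr11:95873001-95873500 and 95873501-95874000 had 14 and 26 KO IP reads and 1 WT IP read each, about 176 kb from the cluster, and a further one at 95850001-95850500 had 5.96 and 1.78 RPKM. Beside Hoxc, the window at chr15:102562001-102562500 had 15.9 and 8.03 RPKM. That was higher in both genotypes than any listed window in the clusters.

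The second comparison placed Sirt6 binding in WT cells beside these windows. WT Sirt6 peaks were found in 3 of the 4 clusters, with 3 in Hoxa, 2 in Hoxb, 1 in Hoxd and 0 in Hoxc, and 17 lay in the flanks. Of end-to-end stretches of the same length on their chromosomes, 25.4% for Hoxa, 53.7% for Hoxb, 31.8% for Hoxc and 34.1% for Hoxd held 1 peak or more. Hoxa held 5.49 times the density of chromosome 6 (exact 95% interval 1.13 to 16.1), and 6.73% of the stretches of that chromosome held as many peaks. Hoxb stood at 1.01 times (0.123 to 3.67), Hoxd at 1.27 times (0.0321 to 7.08) and Hoxc at 0 (up to 4.40). All clusters together held 0.974 times the density of their flanks (0.314 to 2.59). With 6 peaks in all, only the interval of Hoxa against its chromosome lay above 1, and it began just above 1. These intervals take peaks as independent. Sirt6 peaks crowd in places, with up to 24 in 120 kb elsewhere on the Hoxa chromosome, so the intervals are too narrow. Against its own flanks Hoxa stood at 2.50 (0.366 to 14.8), an interval that spans 1.

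Most Sirt6 peaks of the clusters were weak. Fold enrichment over the local background is here the authors' value for each peak, computed by the peak caller. The median was 5.07 in the clusters, 8.33 in the flanks and 8.08 over all 14510 peaks, and 4 of the 6 had the shortest length in the list, 220 bp, as did 10.1% of all peaks. The 2 peaks near the anterior end of Hoxa were the exceptions. The peak at chr6:52108334-52108865 had a fold of 9.08 from a pileup of 11 fragments, and that at chr6:52122296-52122636 a fold of 8.89 from 10 fragments. They were the only ones of the 6 with a −log10 q of 10 or more, beside 44.4% of all peaks, so the share in the clusters was not above the background. They ranked 5195 and 5498 in the list by fold.

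The other 4 peaks rested on 5 or 6 fragments. The Hoxa peak at 52167116-52167335 had a fold of 4.54, and 0.910% of the list had a lower one. Hoxb had peaks at chr11:96112803-96113022 (fold 4.67) and 96216069-96216288 (fold 5.30). The Hoxd peak at chr2:74601027-74601246 had a fold of 4.85. Of these, the first Hoxb peak lay inside the 89.0 kb gap between CMS-IP windows. In both KO Sirt6 libraries, sequenced 19.9 and 24.4 times deeper, 0 peaks were called at these places. Both KO lists held 0 peaks anywhere in the genome, so this says nothing particular about these peaks.

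For Hoxb and Hoxd, stronger Sirt6 peaks lay outside the cluster than inside, while in Hoxa the strongest peak, with a fold of 9.08, lay inside. The strongest in any flank was at chr2:74663789-74664496 beside Hoxd, with a fold of 17.0 and rank 339 of 14510, and the other Hoxd flank peak, at 74416463-74416926, had 11.9. Beside Hoxb, 3 peaks shared a fold of 11.3, at chr11:95866203-95867222, 95868582-95869307 and 95895885-95896619. Beside Hoxa the highest were 8.08 at chr6:51961827-51962583, 6.47 at 52053795-52054043 and 4.85 at 52263815-52264044. Beside Hoxc they were 8.33 at chr15:103071699-103072017, 6.41 at 103070892-103071142 and 5.30 at 102577597-102577832. Of the 17 flank peaks 8 had a −log10 q of 10 or more.

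Sirt6 peaks and CMS-IP windows did not coincide in the clusters. Of the 49 windows 0 overlapped a WT Sirt6 peak or lay within 1000 bp of one, beside 9.08% of the 2169 other higher windows. The closest pair lay 1.12 kb apart in Hoxa. Over the 49 windows the median distance to a Sirt6 peak was 35.2 kb, beside 37.1 kb for the other higher windows. By cluster the median was 7.17 kb in Hoxa, 41.5 kb in Hoxb, 62.8 kb in Hoxd and 190 kb in Hoxc, which held no Sirt6 peak. These windows share clusters and often DNA fragments, so they are not 49 independent points. The count of 0 can therefore not be read as a lower share than that of the other windows.

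The third comparison concerned H3K9ac and H3K56ac, the marks that Sirt6 removes, in WT and KO cells and with and without RA. The clusters held 0 peaks in all 8 lists. That count says little about the clusters, because the lists were short, at 2063 to 3593 peaks, and at the density of their chromosomes only 0.373 to 0.760 peaks per list, or 4.03 summed over the 8 lists, were expected in the 580 kb. In Hoxa, for example, a count of 0 allowed a density of up to 25.3 times that of the chromosome in the untreated KO H3K9ac list, and up to 41.2 times in the RA-treated WT H3K56ac list. No difference between genotypes or between untreated and RA-treated cells was detectable in the clusters at this depth. Clusters and flanks together held 1 peak over the 8 lists, where 1.44 to 2.86 per list, or 15.5 in sum, were expected. The lists share many places, as the nearest peaks to Hoxa and Hoxd show, so the sum is not one of independent counts.

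That peak was in the RA-treated KO H3K56ac list at chr2:74664034-74664260, with a fold of 5.43, and lay 49.0 kb beyond the anterior edge of Hoxd. It overlapped the strongest Sirt6 peak of the flanks, at chr2:74663789-74664496. In the other 7 lists the nearest peak to Hoxd lay on the posterior side. In 6 of them it was at one place, between 74237119 and 74237431, about 248 kb from the cluster with folds of 10.9 to 12.7. In the untreated WT H3K9ac list it was 645 kb away.

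Hoxa lay in the longest stretch of chromosome 6 without a called acetylation peak. The lists were short and called with no control, so such a stretch does not show that acetylation was absent. The nearest peak was at the same place in all 8 lists, between 49839825 and 49840232 and about 2260 kb away, with folds of 23.3 to 32.1. On the other side the next peak of any list began at 56412472, so the stretch measured 6572 kb, the longest of the 332 between peaks of the 8 lists on that chromosome. Hoxb lay in a stretch of 1202 kb, and 17 of 257 on its chromosome were as long. For Hoxc it was 1291 kb with 14 of 240 as long, and for Hoxd 427 kb with 153 of 404. A longer stretch is more likely to hold any given point, and stretches as long as that of Hoxb made up 29.7% of its chromosome, that of Hoxc 25.9%, that of Hoxd 79.2% and that of Hoxa 4.49%.

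None of the 6 Sirt6 peaks of the clusters was overlapped by an acetylation peak of any list, a share of 0 with an exact upper limit of 45.9%. Of all WT Sirt6 peaks, 1.03% were overlapped by untreated WT H3K9ac peaks, 2.2% by untreated WT H3K56ac, 9.3% by untreated KO H3K9ac and 4.03% by untreated KO H3K56ac. After RA the shares were 1.25% for WT H3K9ac, 1.71% for WT H3K56ac, 1.89% for KO H3K9ac and 1.84% for KO H3K56ac. With 6 peaks, a count of 0 lay near each of these.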

How the data were processed

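The Hox genes, their intervals and the gene groups were chosen with earlier results of these data known. Groups came from the sample labels, with 1 library each. The submitters' processing notes name BWA 0.5.9, Picard and MACS2 2.0.10 for ChIP-seq and edgeR for CMS-IP, all on build mm9. Per the file headers, each library's peaks were called on their own with q below 0.01, with whole-cell extract as control for Sirt6 and no control for acetylation. The deposited peak lists give the authors' pileup signal, −log10 p and −log10 q, and fold enrichment. The deposited CMS-IP table gives the authors' read count and RPKM per library, and edgeR's log2 fold change, p-value and adjusted p for windows with p under 0.001. Nearby windows and peaks of 1 library are not replicates, so no test was made.

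Features per Mb were divided by those of the chromosome outside the cluster, between its first and last listed feature, or of the flanks. Ratios carry exact (Clopper-Pearson) 95% intervals, which cover counting error only, also because reads without molecular identifiers are not independent molecules. Ratios of reads were scaled to library sizes computed from the deposited counts and RPKM. In each cluster all peaks and windows were named where 10 or fewer were listed, otherwise the 5 windows with the smallest p, and in each flank the 3 Sirt6 peaks with the highest fold, the 3 windows with the smallest p and all acetylation peaks. Only the placing of features and the density ratios with their intervals were tested on simulated data. The simulated features were independent, which adjoining windows are not, so the widths of the intervals were not tested for such windows. The alternatives tried were peaks kept at a −log10 q of 10 or more, peaks joined within 1000 bp, covered bases, summits, other chromosome lengths, flanks of 100 and 500 kb, lists of equal length, other overlap rules, windows with an adjusted p below 0.1 and adjacent windows joined. Values were computed with scipy 1.17.1, pandas 2.3.3 and numpy 2.4.6 under Python 3.11.15, and plotted with matplotlib 3.10.9. Gene order and promoter sequences are from RefSeq.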

Additional observations from a re-analysis of the deposited data

How the results depend on the processing

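Of 99 alternative values 79 kept within the error or 1.5 times of the reported one and 20 moved. The number of higher CMS-IP windows fell to 2 over all clusters when the authors' deposited table was limited to an edgeR adjusted p below 0.1, which left 2 in Hoxa and 0 in Hoxb, Hoxc and Hoxd. It fell to 13 in Hoxa with adjacent windows joined. The following CMS-IP settings were chosen after seeing the data. Windows whose KO input did not exceed the WT input numbered 19 in all, with 6 in Hoxa, 2 in Hoxb and 5 in Hoxc. With them the density of Hoxb fell to 11.1 times that of its chromosome (exact 95% interval 1.32 to 40.9). With an adjusted p under 0.1 the density ratio was 271 in Hoxa (28.5 to 1310) and 0 in Hoxb and Hoxd, and Hoxc gave no value. With flanks of 100 kb, which held no window beside Hoxc or Hoxd, the exact 95% interval of the ratio to flanks began at 2.82 in Hoxc and 2.63 in Hoxd. For Sirt6, a −log10 q of at least 10 left 0 peaks in Hoxb and Hoxd, so their density ratios to chromosome and flanks were 0. The ratio to flanks had no value for Hoxa and Hoxc at that limit, or for Hoxb and Hoxc with flanks of 100 kb, where the flanks held no peak. Acetylation peaks in the clusters stayed at 0 under the alternatives run. Those settings only dropped or joined peaks, and with no peak inside they could give no other count. These values are among the 79 and add nothing to that tally. The same goes for the 0 lower CMS-IP windows and the Sirt6 ratios of 0 in Hoxc. No paired analysis was possible because each group had 1 library. The WT Sirt6 library held 2008232 tags and gave 6 peaks in the clusters, and the short acetylation lists limit what 0 peaks can show.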

Other observations

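Outside the Hox clusters, the 3 stretches of up to 100 kb with the most higher CMS-IP windows lay on chromosome 11, at 5783501-5874500 with 14 windows, 6260501-6353500 with 14 and 5449001-5534000 with 13. In these the input reads were higher in KO than in WT for the library size, with ratios of 1.26 (1.07 to 1.48), 2.55 (1.93 to 3.42) and 1.87 (1.48 to 2.39), beside 1.12 in Hoxa (0.982 to 1.27), 1.09 in Hoxb, 0.867 in Hoxc and 0.806 in Hoxd. The next, on chromosome 10 at 42294501-42357000 with 12 windows, had an input ratio of 1.63 (exact 95% interval 1.30 to 2.07). A stretch on chromosome 7 at 25654501-25740500 with 9 windows had an input ratio of 0.994 (0.879 to 1.12), and its WT IP stood at 1.84 times its input. The ratio of WT IP to input was 0.735 in a stretch on chromosome 7 at 146770501-146862000 with 8 windows, and 0.886, 1.54 and 0.895 in those on chromosome 11, beside 0.732 over the 49 Hox windows.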
